A study of Rattus norvegicus with 35 samples.

Results

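Levels of 10 genes of 3 ribonucleoprotein complexes, each built on a small structured RNA, were followed in rat hippocampus. Rn7sl1 is the RNA at the core of the signal recognition particle, and Srp9, Srp14, Srp19, Srp68 and Srp72 encode proteins of it. Rpph1 carries the name of the RNA of RNase P. Mepce, Larp7 and Hexim1 encode proteins that bind the 7SK RNA. They were taken by name from the count table of 15059 genes, and 10 of 10 were present. Rn7sl1, Rpph1 and Mepce were chosen by their counts per M counts (CPM, M for mega) and zero counts over the 35 libraries, and the others as their protein partners, with the same values in view. For these 3 genes the values and fold changes are therefore given as a description, and no p is read for them.

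The signal recognition particle binds the signal sequence of a nascent secretory or membrane protein and brings its ribosome to the endoplasmic reticulum. Srp9 and Srp14 form the end of the particle that slows elongation, and Srp19, Srp68 and Srp72 bind the other end of the RNA. RNase P removes the leader from the 5′ end of tRNA precursors. In the 7SK complex Mepce caps and holds the RNA, Larp7 binds its 3′ end, and Hexim1 keeps P-TEFb, the kinase that releases paused RNA polymerase II, inactive. The RNAs of the signal recognition particle and of RNase P are made by RNA polymerase III and lack the long poly(A) tail of mRNA, whereas these libraries were made from poly(A)-selected RNA.

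Female Sprague Dawley rats underwent surgery at 6 months of age and were left for a washout of 2 weeks. One group was sham operated, with no treatment named. The other 6 were ovariectomized and given vehicle, estradiol at 0.16 mg/kg, tamoxifen at 3.23 mg/kg, raloxifene at 9.68 mg/kg, exemestane at 0.16 mg/kg or anastrozole at 4.03 mg/kg. Injections were intraperitoneal, once a day, and tissue was taken 7 days after they began. Tamoxifen and raloxifene are selective estrogen receptor modulators, and exemestane and anastrozole inhibit aromatase. What the vehicle was is not given in the sources used here. Each group held 5 libraries, 35 in all, and because nothing says more of their origin, p-values measure the spread between these libraries.

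The libraries summed to between 5.58 M and 12.09 M counts (median 8.01 M). A pair of library sets, which no label mentions, differ in the factors by which the authors scaled each gene. These library classes were defined here with the 10 genes left out. Class A held 20 libraries and class B held 15. Class B held raloxifene 1 to 5, exemestane 1 to 4, tamoxifen 3, 4 and 5, anastrozole 3 and 4, and vehicle 4, whereas every sham and estradiol library was in class A. Class and drug therefore cannot be told apart in raloxifene, and the comparison within class B rests on vehicle 4 alone. The 13 mitochondrial genes took 4.32 to 6.66% of counts in a class A library and 5.80 to 7.77% in one of class B. Of 8 markers of hippocampal neurons 7 were in the table, with a summed level of 1131 to 2411 CPM in class A and 1812 to 2064 CPM in class B. Of 10 choroid plexus markers 9 were in the table, with sums of 5.55 to 3320 CPM over class A libraries and 5.28 to 3448 CPM over those of class B. All 7 oligodendrocyte markers were in the table, and their sum was 5979 to 7318 CPM in vehicle, 4957 to 5858 in raloxifene, without overlap, and 4644 to 6376 in exemestane. Medians of the summed markers in class A and class B were 1996 and 2310 CPM for 5 astrocyte markers, 150 and 130 CPM for 5 microglial markers, 110 and 92.9 CPM for the 2 endothelial markers in the table, and 140 and 154 CPM for 9 markers of thalamus and habenula. No marker of these lists was at 0 throughout a group, and the part of these cell type differences in the results below was not tested.

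Promoters are shown for Srp9 and Srp72, which passed the test in raloxifene, and for Mepce, whose counts were 0 in every raloxifene library. RefSeq (GRCr8) holds a promoter for 8 of the 10 genes, and the window runs from 250 bases before the annotated start to 50 after it. Capitals mark the matches to 4 motifs searched on both strands, TATAAA, the octamer core ATGCAAA, the core TGACG of the cAMP response element (CRE) and the E-box CACGTG, none of which contains another. The Mepce window lies at chr12:24548346-24548645 on the + strand, that of Srp9 at chr13:96364003-96364302 on the + strand, and that of Srp72 at chr14:31549925-31550224 on the - strand.
Mepce: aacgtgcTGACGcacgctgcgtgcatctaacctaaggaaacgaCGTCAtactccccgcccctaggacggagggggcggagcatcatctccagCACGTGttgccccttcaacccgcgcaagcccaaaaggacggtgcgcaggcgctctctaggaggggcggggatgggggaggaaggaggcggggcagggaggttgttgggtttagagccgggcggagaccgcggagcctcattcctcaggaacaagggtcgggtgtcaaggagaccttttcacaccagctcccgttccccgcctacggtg
Srp9: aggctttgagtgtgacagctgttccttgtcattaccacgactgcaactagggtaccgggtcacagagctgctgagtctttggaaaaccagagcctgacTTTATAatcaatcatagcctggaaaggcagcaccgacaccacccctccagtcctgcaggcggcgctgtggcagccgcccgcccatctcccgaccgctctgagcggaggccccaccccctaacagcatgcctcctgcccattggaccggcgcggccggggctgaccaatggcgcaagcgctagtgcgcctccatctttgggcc
Srp72: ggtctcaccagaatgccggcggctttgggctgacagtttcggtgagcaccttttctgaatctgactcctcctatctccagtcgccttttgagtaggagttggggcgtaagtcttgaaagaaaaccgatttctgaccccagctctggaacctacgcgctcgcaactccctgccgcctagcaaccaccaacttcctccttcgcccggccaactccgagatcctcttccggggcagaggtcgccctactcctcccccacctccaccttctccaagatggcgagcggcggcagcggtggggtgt

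The Mepce window held 2 CRE cores and 1 E-box, and 64% of its bases were G or C. The Srp9 window held 1 TATAAA, read as TTTATA on the printed strand 152 bases before the start, with 61.7% G or C. The Srp72 window, with 59.7% G or C, held no match to any of these letters. Of all 33469 promoters in the table, 21.2% held a CRE core, 6.42% the E-box, 14.2% TATAAA and 4.68% the octamer core. Larp7, not printed, held 5 CRE cores, Srp14 held 2 with 1 TATAAA, and Srp19 and Srp68 held 1 each.

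Rn7sl1 alone took between 2.90 and 6.49% of all counts of a library. In vehicle its share was 4.70, 4.84, 4.74, 3.44 and 4.68% for replicates 1 to 5 (mean 4.48% ± 0.585, SD, n = 5). In raloxifene it was 3.12, 3.62, 3.54, 3.45 and 3.18% (3.38% ± 0.221, n = 5). In exemestane it was 3.84, 3.58, 3.67, 3.51 and 5.81% (4.08% ± 0.971, n = 5). Every raloxifene library lay below 4 of the 5 vehicle libraries, and vehicle 4 lay among the raloxifene values.

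In sham animals the share of Rn7sl1 was 5.36, 5.14, 4.47, 4.96 and 4.82% (4.95% ± 0.333, n = 5), and in estradiol it was 4.99, 5.42, 5.10, 5.69 and 5.88% (5.41% ± 0.378, n = 5). In tamoxifen it was 5.47, 6.49, 3.23, 3.24 and 3.34% (4.35% ± 1.53, n = 5). In anastrozole it was 6.49, 5.60, 3.82, 2.90 and 5.06% (4.77% ± 1.43, n = 5). Tamoxifen and anastrozole thus each held a high and a low set of libraries, while sham and estradiol held high values only. In the order of mean CPM, from raloxifene through exemestane, tamoxifen, vehicle, anastrozole and sham to estradiol, the ranges of all neighbouring groups overlapped. The step from sham to estradiol was the only one larger than the larger SD of its pair.

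**Figure D1:**
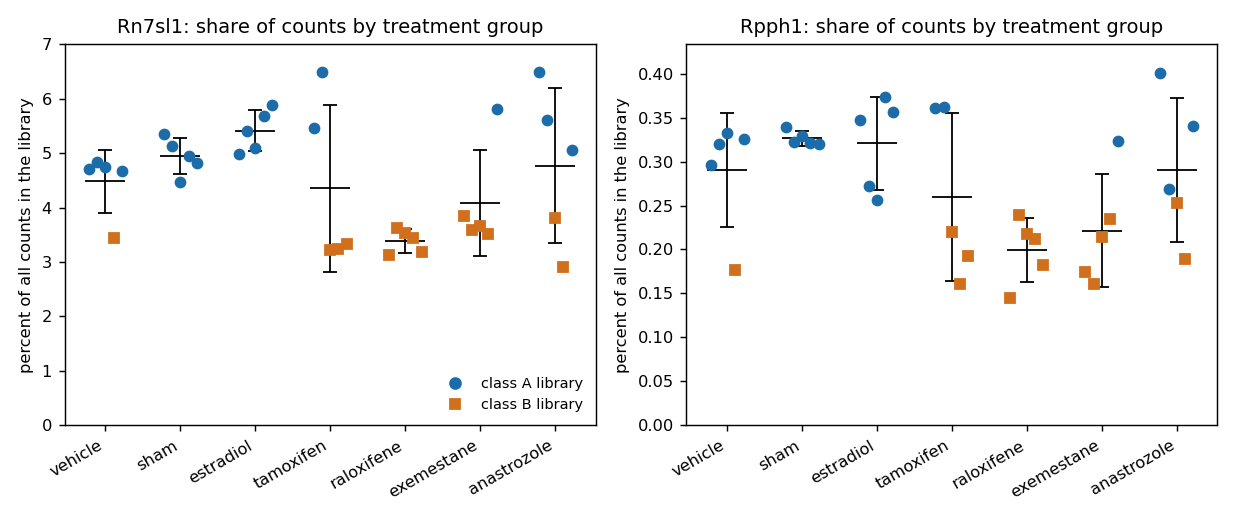
Share of all counts taken by Rn7sl1 (left) and Rpph1 (right), in percent on the vertical axes, in each of the 35 libraries by treatment group. Circles are class A and squares class B libraries, and the bars give the mean and SD of 5 libraries. In both panels every class B library lies below every class A library.

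The high and low sets followed the library class. Rn7sl1 held 43766 to 65272 CPM over the class A libraries and 28139 to 38439 CPM over those of class B, without overlap. The class means were 52574 ± 5967 and 34619 ± 2763 CPM (SD, n = 20 and 15), a log2 difference of -0.60. On the authors' normalized signal the same RNA averaged 343889 ± 22667 in class A and 365858 ± 22442 in class B, a log2 difference of 0.09 with overlapping ranges. The direction of the difference between the classes therefore turned with the scale. The log2 factor applied by the authors differed between the classes by -0.69 for Rn7sl1, and 64 of 15058 genes had a difference that low or lower.

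Group differences in Rn7sl1 turned in the same way. From vehicle to raloxifene the log2 fold change was -0.37 ± 0.18 (SE, edgeR with TMM factors), 0.21 ± 0.08 with library class in the fit and 0.11 ± 0.05 with the authors' factors. From vehicle to exemestane it was -0.11 ± 0.18, and it became 0.30 ± 0.08 with class and 0.18 ± 0.05 with the authors' factors. On the normalized signal the exemestane libraries held 398319, 382189, 381752, 377526 and 378848 and the vehicle libraries 319881, 371807, 320315, 341592 and 337440. All 5 exemestane libraries thus lay above all 5 vehicle libraries on that scale, and how many other genes separated likewise was not counted. On the same scale raloxifene held 343278, 376731, 383038, 364198 and 355423, which overlapped vehicle.

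Within class A the 4 vehicle libraries lay close together, at 46707 to 47555 CPM of Rn7sl1. The 5 estradiol libraries of that class held 50016 to 58927 CPM, the 2 tamoxifen libraries 54888 and 65272, the single exemestane library 58247, the 3 anastrozole libraries 49960 to 65031 and the 5 sham libraries 43766 to 51921. Estradiol, tamoxifen, exemestane and anastrozole libraries of class A thus all exceeded the class A vehicle libraries in CPM, and sham overlapped them. On the normalized signal the class A vehicle libraries held 319881 to 371807. Estradiol at 316407 to 352212, tamoxifen at 362557 and 383841, and anastrozole at 329797 to 388495 then overlapped vehicle, and the exemestane library at 378848 lay above it.

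**Figure D2:**
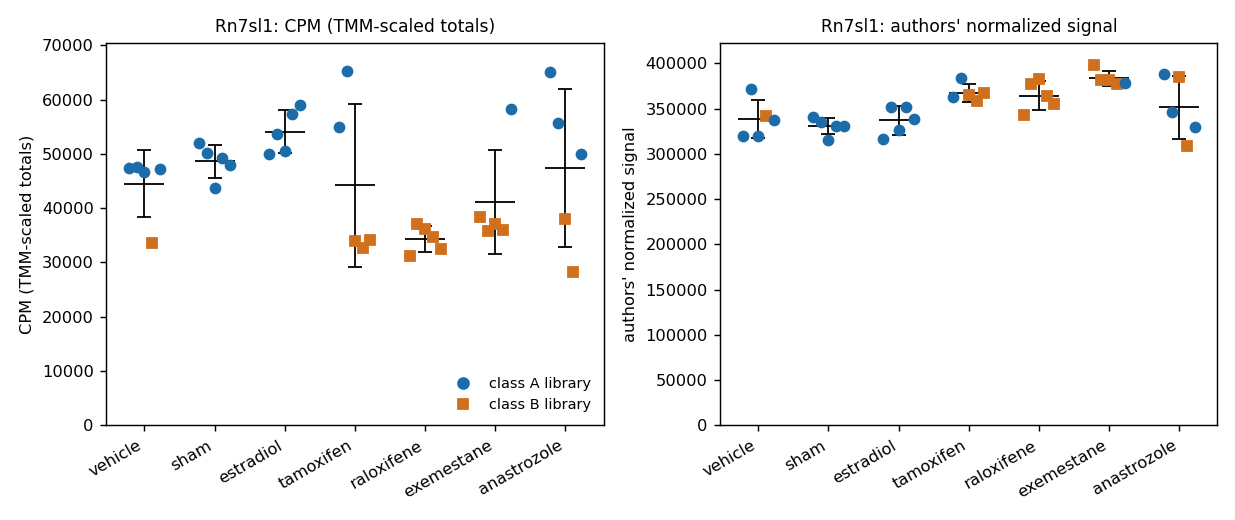
Rn7sl1 in each library by treatment group, as CPM with TMM-scaled totals (left) and as the authors' normalized signal (right), with symbols and bars as in the plot of shares. The gap between class A and class B on the left, with class means of 52574 and 34619 CPM, is not seen on the right, where the class means are 343889 and 365858.

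Sequences related to the 7SL RNA are found at many places in rodent genomes, so reads may be shared among copies and the level of Rn7sl1 is uncertain to that extent. Next to Rn7sl1 in RefSeq lies Rps29, a ribosomal protein gene, which fell in raloxifene by 0.36 ± 0.09 on the log2 scale (edgeR, adjusted p = 0.0125) and in exemestane by 0.36 ± 0.09 (edgeR, adjusted p = 0.0394). In the fit with class and group, Rps29 was lower in class B by a log2 difference of -0.35 ± 0.03 (edgeR, adjusted p = 1.48e-10).

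Rpph1 behaved like Rn7sl1 in that its share also separated by class. Its share of counts was 0.296, 0.320, 0.332, 0.177 and 0.326% in vehicle (0.290% ± 0.065, SD, n = 5). In raloxifene it was 0.145, 0.239, 0.217, 0.212 and 0.182% (0.199% ± 0.037, n = 5). In exemestane it was 0.174, 0.161, 0.214, 0.234 and 0.324% (0.221% ± 0.065, n = 5). Vehicle 4 lay among the raloxifene libraries, and exemestane 5 lay among the other vehicle libraries.

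The 5 sham libraries held 0.339, 0.322, 0.330, 0.321 and 0.320% Rpph1 (0.326% ± 0.008, n = 5), the narrowest spread of any group. Estradiol held 0.347, 0.272, 0.256, 0.373 and 0.356% (0.321% ± 0.053, n = 5). Tamoxifen held 0.360, 0.362, 0.220, 0.161 and 0.193% (0.259% ± 0.095, n = 5), and anastrozole 0.400, 0.269, 0.253, 0.190 and 0.341% (0.290% ± 0.082, n = 5). In the order of mean CPM, raloxifene was lowest and estradiol highest, and no neighbouring groups differed by more than the larger SD.

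Rpph1 held 2540 to 4012 CPM over class A libraries and 1448 to 2512 CPM over those of class B, with means of 3267 ± 367 and 2001 ± 338 CPM (SD, n = 20 and 15). The log2 difference of the class means was -0.71 in CPM and -0.24 on the normalized signal, where the ranges overlapped. Unlike Rn7sl1, Rpph1 thus kept its direction between the classes on both scales. The fold of raloxifene over vehicle was -0.51 ± 0.22 on the log2 scale, 0.14 ± 0.16 with class in the fit and -0.16 ± 0.14 with the authors' factors. For exemestane it was -0.37 ± 0.22, 0.10 ± 0.15 with class and -0.12 ± 0.14 with the authors' factors. The sign of both folds turned once class was in the fit.

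The count ratio of Rn7sl1 to Rpph1 stayed in one range, at 13.6 to 20.9 in class A (median 15.6) and 14.7 to 22.3 in class B (median 17.1). After the class means were subtracted, the log2 CPM of the pair correlated with Pearson's r = 0.43 over 35 libraries that share their totals, which placed Rn7sl1 and Rpph1 at rank 80 of 12601 genes. Within class A r was 0.43 and within class B 0.49. None of the 8 other genes of the set had a value as high with Rn7sl1, the range being -0.28 to 0.17.

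In RefSeq the symbol Rpph1 carries the biotype of the RNA of RNase MRP, a relative of RNase P, and the synonyms Rmrp and Rmrp1. Which of these RNAs the row counts cannot be settled from the name, and it is called Rpph1 here as in the table. The RefSeq interval overlaps that of Parp2, a DNA repair gene, so reads could be split between them. Parp2 showed a log2 fold of -0.01 ± 0.13 in raloxifene, and it held 47 to 110 counts a library. Tep1, a telomerase-associated protein gene on the far side, had a fold of -0.21 ± 0.08 (edgeR, adjusted p = 0.0632).

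Mepce was read as all or none. Its estimated counts were 40, 38, 17, 29 and 68 in vehicle and 0 in each of the 5 raloxifene libraries. Sham held 92, 0, 0, 39 and 79 counts, estradiol 0, 0, 0, 0 and 50, and tamoxifen 0, 28, 0, 0 and 0. Exemestane held 0, 0, 49, 0 and 42 counts, and anastrozole 45, 60, 0, 0 and 0. Vehicle was the only group with counts in all 5 libraries, and raloxifene the only one with none.

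In all, 14 of 35 libraries held counts of Mepce, with a median of 43.5 among them, and 21 held none. Of the class A libraries 12 of 20 held counts, and of the class B libraries 2 of 15, which were vehicle 4 and exemestane 3. Over the group, vehicle held 192 counts or 4.77 per M counts. A floor of 3 counts over the 5 raloxifene libraries corresponds to 0.068 per M counts, which is 69.8-fold below the pooled vehicle value. That ratio covers counting error only and pools the libraries of a group. It bounds no difference between groups, since libraries of one group could be at 0 or far above it. It also takes a 0 as a count, although each value is the estimate of a quantifier. A 0 can also be an assignment of reads to another transcript.

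Such a pattern was rare in the table. Every gene there had counts in at least 8 libraries, so genes seen in fewer do not enter these numbers. Mepce was chosen for its zeros, so the numbers are a description. Of 15059 genes, 14326 had no 0 in any library, and none of the 9 other genes of the set had one. A 0 in 10 or more libraries beside a median of at least 20 counts in the others was seen in 48 genes. Mepce was the only gene at 0 in all 5 raloxifene and above 0 in all 5 vehicle libraries, and no gene showed the opposite. Mepce overlaps Ppp1r35, a centriole protein gene, in RefSeq, so reads of this locus could have been divided between them. Ppp1r35 held 19 to 33 counts in raloxifene and 0, in vehicle 3 alone, to 30 in vehicle.

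**Figure D3:**
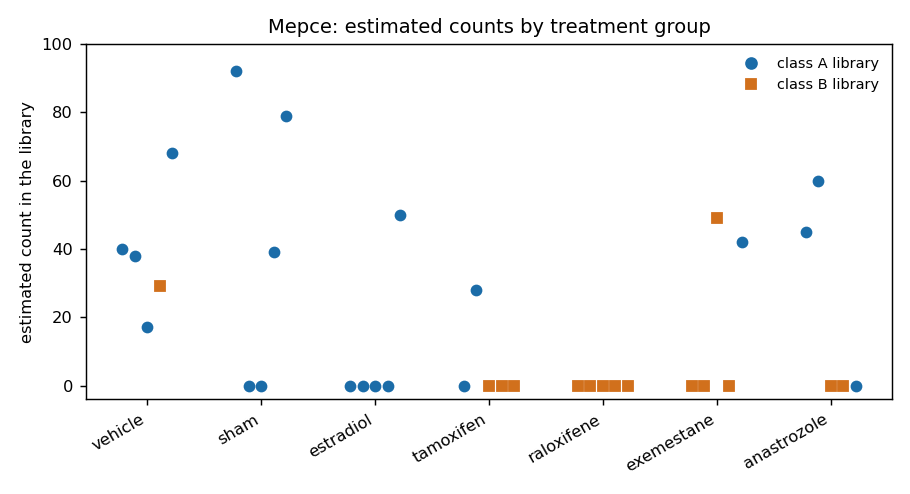
Estimated counts of Mepce in each of the 35 libraries by treatment group, with circles for class A and squares for class B. Values are either 0, in 21 libraries, or between 17 and 92, and all 5 raloxifene libraries are at 0.

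Each of the 10 genes was among the 14411 that passed the filter on low counts, Mepce through the libraries in which it had counts. The test was read for the 7 protein partners other than Mepce. In raloxifene against vehicle 2 of 7 passed, with Srp9 and Srp72 higher and 0 lower (edgeR's quasi-likelihood test, Benjamini-Hochberg adjusted p under 0.05), against 24.8% of all genes, 13.4% higher and 11.4% lower. Their median log2 fold was 0.14 and that of all genes -0.02. As single libraries were left out, Srp9 passed in 4 of 10 fits, those without raloxifene 2, raloxifene 4, vehicle 1 or vehicle 4. Srp72 passed in 3 of 10, those without raloxifene 3, raloxifene 4 or vehicle 4, and without vehicle 4 Larp7 passed as well. With library class in the fit 0 of 7 passed, against 0.00694% of all genes.

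In exemestane 0 of 7 passed in edgeR, against 6.51% of all genes. DESeq2 called 2, Larp7 and Srp72, against 1979 of all 14411 genes. In edgeR 4 had an unadjusted p under 0.05, against 4519 of 14411 genes. Without exemestane 5 Hexim1, Larp7 and Srp72 passed, and without vehicle 4 Larp7, Srp72 and Srp9 did. With class in the fit 0 passed, against 0% of all genes. With estradiol 0 of 7 passed, against 0.00694% of all genes, and with sham, tamoxifen and anastrozole 0 passed, against 0% of all genes. An unadjusted p under 0.05 was seen for 0 in sham, 0 in estradiol, 1 in tamoxifen and 0 in anastrozole. Over all 14411 genes it was seen for 981, 1316, 2365 and 414 in the same order (edgeR). DESeq2 called 0 of the 7 in each of these contrasts, against 11, 17, 83 and 1 of all genes. Among all 7 groups 3 of 7 differed, Hexim1 (adjusted p = 0.00939), Srp72 (adjusted p = 0.0135) and Larp7 (edgeR, adjusted p = 0.0270), against 37.0% of all genes. With class in the fit 0 differed, against 0.0278% of all genes.

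Srp9 rose in raloxifene. Its level was 21.1, 18.9, 14.6, 22.9 and 18 CPM in vehicle (19.1 ± 3.15, SD, n = 5) and 24.8, 23.8, 26.4, 19.4 and 26.6 CPM in raloxifene (24.2 ± 2.89, n = 5). The log2 fold was 0.35 ± 0.12 (edgeR, adjusted p = 0.0335). All raloxifene libraries but raloxifene 4 lay above the highest vehicle library, vehicle 4. With class in the fit the fold was 0.08 ± 0.11 (edgeR, adjusted p = 0.984).

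Srp72 rose in raloxifene as well. It stood at 122, 121, 112, 120 and 121 CPM in vehicle (119 ± 3.94, SD, n = 5) and at 143, 140, 132, 128 and 133 CPM in raloxifene (135 ± 6.22, n = 5). The log2 fold was 0.18 ± 0.07 (edgeR, adjusted p = 0.0414), in a contrast where 24.8% of all genes passed. The groups did not overlap, and how many other genes separated likewise was not counted. With class in the fit it was 0.02 ± 0.05 (edgeR, adjusted p = 0.994), and with the authors' factors 0.07 ± 0.04 (edgeR, adjusted p = 0.339). In exemestane Srp72 held 133, 143, 138, 143 and 121 CPM (136 ± 9.57, n = 5), with a fold of 0.18 ± 0.07 (edgeR, adjusted p = 0.0657). Exemestane 5, the class A library of that group, lay within the vehicle range, and the other 4 lay above it.

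The remaining proteins of the particle passed in none of the 8 pairwise contrasts of groups (edgeR). Srp14, the partner of Srp9, averaged 38.9 ± 3.60 CPM in vehicle and 43.0 ± 2.67 in raloxifene (n = 5 each), a log2 fold of 0.14 ± 0.07 (edgeR, adjusted p = 0.143). Srp19 averaged 14.9 ± 1.25 CPM in vehicle and 15.7 ± 1.58 in raloxifene, a fold of 0.07 ± 0.10. Srp68, which pairs with Srp72, averaged 64.0 ± 4.09 CPM in vehicle and 62.4 ± 2.70 in raloxifene, a fold of -0.04 ± 0.06. For each of these 3 genes the raloxifene and vehicle ranges overlapped. Over the 7 groups the mean of Srp14 ran from 38.0 CPM in anastrozole to 43.0 in raloxifene, that of Srp19 from 14.4 in estradiol to 15.7 in raloxifene, and that of Srp68 from 61.7 in exemestane to 67.5 in anastrozole.

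Of the proteins of the 7SK complex, Larp7 held 14.5, 13.6, 15.7, 18.7 and 14.9 CPM in vehicle (15.5 ± 1.96, SD, n = 5) and 23.2, 19.2, 21.7, 19.5 and 17.6 CPM in exemestane (20.3 ± 2.21, n = 5). Vehicle 4 was the one vehicle library within the exemestane range. The log2 fold was 0.39 ± 0.13 (edgeR, adjusted p = 0.058; DESeq2, adjusted p = 0.0335), and 0.18 ± 0.12 with class in the fit (edgeR, adjusted p = 0.803). In raloxifene Larp7 averaged 18.6 ± 1.33 CPM, with a fold of 0.27 ± 0.13 (edgeR, adjusted p = 0.129).

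Hexim1 held 43.9, 40.9, 47.9, 42.5 and 47.1 CPM in vehicle (44.5 ± 2.96, SD, n = 5) and 37.5, 38.0, 41.3, 40.3 and 40.4 CPM in raloxifene (39.5 ± 1.66, n = 5). The log2 fold was -0.17 ± 0.07 (edgeR, adjusted p = 0.0708), and only raloxifene 3 reached into the vehicle range. In exemestane Hexim1 averaged 39.6 ± 3.15 CPM, with a fold of -0.17 ± 0.07 (edgeR, adjusted p = 0.108), and in estradiol it reached its highest mean, 48.2 ± 3.73 CPM. Larp7 had its lowest mean in the same estradiol group, at 14.5 ± 1.90 CPM. In these bulk samples fewer cells of a type and less RNA per cell cannot be told apart.

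**Figure D4:**
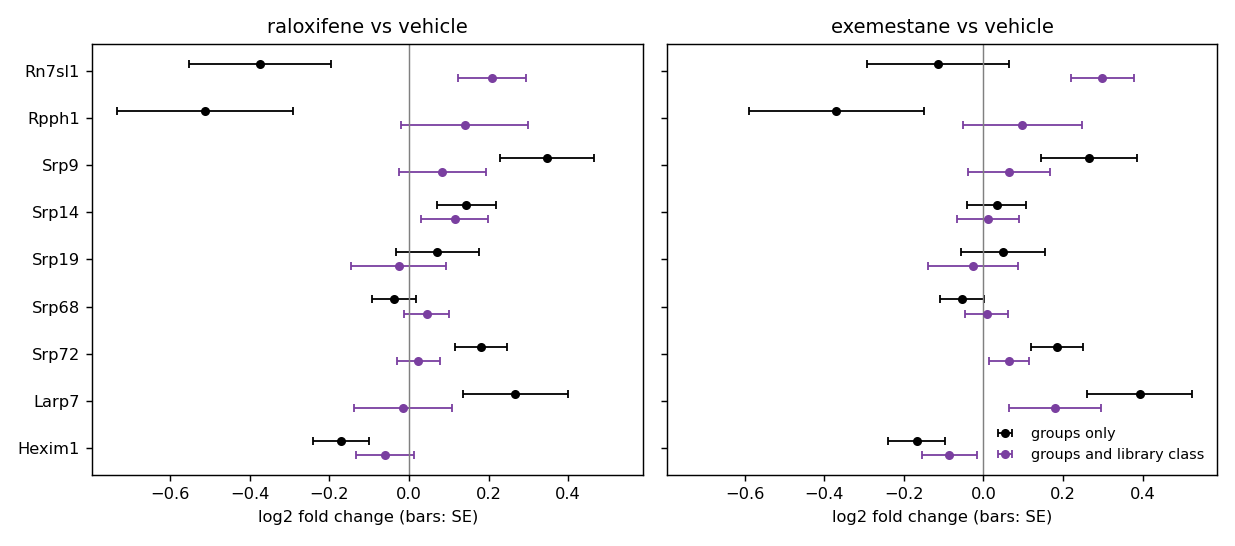
Log2 fold changes of 9 of the 10 genes in raloxifene (left) and exemestane (right) against vehicle, on the horizontal axis, with SE bars. Black points are from the fit with groups only and purple points from the fit with groups and library class. In raloxifene Rn7sl1 moves from -0.37 to 0.21 and Srp72 from 0.18 to 0.02. Mepce, at 0 in all raloxifene libraries, is not drawn.

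Between the drugs of one kind 0 of 7 partners passed in tamoxifen against raloxifene, against 0% of all genes. There 1 had an unadjusted p under 0.05 in edgeR, against 1212 of 14411 genes, and DESeq2 called 0, against 6. In exemestane against anastrozole 0 of 7 passed, against 0% of all genes. Of the 7, 2 had an unadjusted p under 0.05 in edgeR, against 3900 of 14411 genes, and DESeq2 called 0, against 854. The doses within each pair differed, and both pairs hold libraries of both classes.

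Between the classes themselves, in the fit with groups, 5 of the 7 partners differed (edgeR, adjusted p under 0.05), against 51.9% of all genes, 25.5% higher and 26.3% lower in class B. Class B was higher by 0.36 ± 0.08 on the log2 scale for Larp7, 0.34 ± 0.07 for Srp9 and 0.20 ± 0.04 for Srp72. It was lower for Hexim1, with -0.14 ± 0.05, and for Srp68, with -0.10 ± 0.04. Srp14 (0.04 ± 0.06) and Srp19 (0.12 ± 0.08) did not pass. The class coefficients of the 3 genes given without a test were -0.72 ± 0.06 for Rn7sl1, -0.77 ± 0.11 for Rpph1 and -2.29 ± 1.13 for Mepce. In CPM the RNAs were lower and Srp9, Srp72 and Larp7 higher in the class that holds all raloxifene libraries. With the authors' signal in place of CPM, the log2 ratio of the class means shrank from 0.22 to 0.03 for Srp72 and from 0.39 to 0.18 for Larp7, and stayed near its size for Srp9, at 0.34 and 0.29.

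Genes that work with these complexes were read in the same contrasts, where 24.8% of all genes passed in raloxifene and 6.51% in exemestane. With class in the fit 0 genes of the lists that follow passed in raloxifene or exemestane. Of the other signal recognition particle genes and its receptor, 2 were tested, and Srp54a, the subunit that binds the signal sequence, rose in raloxifene from 37.9 ± 3.57 to 49.0 ± 1.53 CPM, a log2 fold of 0.37 ± 0.10 (edgeR, adjusted p = 0.0131). Srpra, the receptor subunit that docks the particle, did not pass in raloxifene. Of 17 genes of the translocon and signal peptidase 7 rose and 0 fell in raloxifene, with a median log2 fold of 0.19 beside -0.02 for all genes, and a share of 13.4% of all genes higher and 11.4% lower. Spcs2, a signal peptidase subunit, rose from 49.3 ± 2.25 to 65.5 ± 2.57 CPM, a fold of 0.41 ± 0.08 (edgeR, adjusted p = 0.0091). The translocon-associated Ssr3 rose by 0.59 ± 0.15 (edgeR, adjusted p = 0.0126; 0.10 ± 0.07 with class, adjusted p = 0.957), Ssr1 by 0.47 ± 0.12 (edgeR, adjusted p = 0.0126) and Tram1 by 0.31 ± 0.08 (edgeR, adjusted p = 0.0131).

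In exemestane 3 of those 17 rose, against 6.51% of all genes passing in either direction, Ssr3 by 0.51 ± 0.15 (edgeR, adjusted p = 0.0454; 0.13 ± 0.06 with class, adjusted p = 0.715), Spcs2 by 0.29 ± 0.08 and Tram1 by 0.27 ± 0.08, and 1 fell, the channel subunit Sec61a1, by 0.22 ± 0.07 (edgeR, adjusted p = 0.0486). Sec61a1 stood at 58.3 ± 5.68 CPM in vehicle and 49.9 ± 4.47 CPM in exemestane.

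Of 11 protein genes of RNase P and RNase MRP 2 rose and 0 fell in raloxifene, beside 24.8% of all genes passing, while their median log2 fold was -0.13. Rpp30 rose from 9.09 ± 1.27 to 13.1 ± 1.66 CPM, a fold of 0.52 ± 0.14 (edgeR, adjusted p = 0.0131), and Rpp40 from 2.50 ± 0.450 to 3.93 ± 0.712 CPM, a fold of 0.64 ± 0.20 (edgeR, adjusted p = 0.0223). With class in the fit their adjusted p was 0.917 for Rpp30 and 0.945 for Rpp40 (edgeR). In exemestane 0 of the 11 passed in edgeR. Of 10 genes around 7SK and P-TEFb 3 rose and 0 fell in raloxifene, beside 24.8% of all genes passing. They were the elongation factors Ell2 (0.37 ± 0.09, edgeR, adjusted p = 0.0124) and Supt4h1 (0.26 ± 0.08, adjusted p = 0.0293) and the cyclin Ccnt2 (0.18 ± 0.06, adjusted p = 0.0325). In exemestane 2 of them rose, Ccnt2 by 0.24 ± 0.06 (edgeR, adjusted p = 0.0394) and Supt4h1 by 0.28 ± 0.08 (edgeR, adjusted p = 0.0461).

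Of 28 genes of RNA polymerase III and its factors 3 rose and 2 fell in raloxifene, beside 24.8% of all genes passing, with a median log2 fold of -0.02. Ssb, the La protein that binds the ends of new polymerase III transcripts, rose from 48.8 ± 5.41 to 77.8 ± 6.32 CPM, a fold of 0.67 ± 0.15 (edgeR, adjusted p = 0.0111). Polr3f, a polymerase subunit, rose by 0.45 ± 0.13 (edgeR, adjusted p = 0.0154). Maf1, a repressor of the polymerase, fell from 66.9 ± 2.09 to 55.0 ± 2.54 CPM, a fold of -0.28 ± 0.07 (edgeR, adjusted p = 0.0131), and Snapc2, a subunit of the complex that binds small RNA promoters, fell by 0.32 ± 0.08 (edgeR, adjusted p = 0.0128). In exemestane 2 rose, Ssb by 0.60 ± 0.15 and Snapc3 by 0.36 ± 0.10, and Snapc2 fell by 0.33 ± 0.08 (edgeR, adjusted p = 0.0394). Of other small structured RNAs only the telomerase RNA Terc was in the table, and it did not pass in any of the 8 pairwise contrasts (edgeR). The lists were drawn up with the results of these data known, and the counts are a description.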

How the data were processed

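Stranded poly(A)-selected libraries of hippocampal RNA with an RNA quality indicator above 7 were sequenced as 100 bp paired-end reads with a target of 30 M (M for mega), per the labels' protocols. The authors deposited estimated counts per gene and a normalized signal, made with Salmon and DESeq2 per the submitters' processing notes; versions, annotation and genome build are not given in the sources used here. The deposited expected counts were whole numbers, so rounding left them as they were. Because Salmon assigns shared reads by estimation, genes with copies or overlaps are uncertain. Each value of the deposited signal is a count over a scaling factor, and these factors vary with both gene and library.

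Counts were tested in edgeR 4.0.16 (R 4.3.3, limma 3.58.1; TMM, filterByExpr by group, robust quasi-likelihood) in 1 fit of 35 libraries, with Benjamini-Hochberg adjustment over 14411 genes and a threshold of 0.05. CPM use TMM-scaled totals, whereas percentages use raw totals. SE come from the fold and its F statistic. Library class is the sign of the first component (72.3% of variance, the second 1.70%) of the gene-centred log2 ratio of both tables over 14317 genes, without the 10 members. Alternatives were DESeq2 1.42.0, other size factors, no filter, class as a term, the authors' factors as offsets, Rn7sl1 and mitochondrial genes left out of totals, classes or compared groups alone, and each library left out. Replicates differed from counting error by a chi-squared of 2.53 to 35.8 per degree of freedom, over 70 pairs within groups. Libraries of a group thus differed by more than counting error, and in how many genes they did was not counted. The fits were also run on simulated counts, which held no library classes and so cannot test contrasts in which class differs.

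The members and gene lists were chosen with earlier results of these data known. Named were all members, up to 4 called genes per list and contrast, the RefSeq neighbours of Rn7sl1, Rpph1 and Mepce, and the 5 genes most like each of these by r. RefSeq (GRCr8) matched 13091 symbols and served for names and neighbours, and 0 columns were left out.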

Additional observations from a re-analysis of the deposited data

Results flagged for a closer look

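Of 69 gene and group combinations of 5 libraries, 7 held a value set apart from the others. Its gap to the nearest other library was large against the range of the group (Dixon's criterion at the 95% level). Chance meets that criterion in about 1 of 20 such combinations. Rn7sl1, Rpph1 and Mepce were chosen by their CPM and zero counts, so that rate is no measure for their values, which are a description. Of the other genes only Srp68 and Srp72 held such a value. Exemestane 5 held 58247 CPM of Rn7sl1, the other exemestane libraries 35829 to 38439. Vehicle 4 held 33533 CPM of Rn7sl1 against 46707 to 47555, and 1726 CPM of Rpph1 against 2993 to 3284. Both libraries are of the other class than the rest of their group, and the part of class in these values was not tested. Tamoxifen 1 held 67.1 CPM of Srp68 against 59.6 to 61.2 in the other tamoxifen libraries. Vehicle 3 held 112 CPM of Srp72 against 120 to 122 in the other vehicle libraries. Mepce stood at 7.30 CPM in estradiol 5 and at 4.65 CPM in tamoxifen 2, where the other 4 libraries of each group were at 0.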

How the results depend on the processing

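The 3 genes described without a test are left out of the counts of passing genes given here for each contrast, unless stated. Among the 7 partners, the count of 2 under the threshold in raloxifene stayed 2 in DESeq2. It became 0 with library class in the fit and 0 with the authors' per-gene factors. With only raloxifene and vehicle libraries in the fit, 6 of all 10 genes passed, against 4817 of 13705 genes. In the fit of all groups 3 of the 10 passed, and both counts include the 3 genes described without a test. As single libraries were left out, Srp9 passed in 4 of 10 fits, Srp72 in 3 and Larp7 in 1. For exemestane the count of 0 became 2 in DESeq2 and ran from 0 to 3 as single libraries were left out, reaching 3 without exemestane 5 or vehicle 4. Among the 7 groups the counts were made over all 10 genes, and the 3 that passed in the fit of groups were partners. This count became 0 with class and 1, Rn7sl1, with the authors' factors. In DESeq2 it was 6, of which 4 were partners and the others Rn7sl1 and Rpph1. It ran from 2 to 6 as single libraries were left out, with Rn7sl1 and Rpph1 among the 6 without exemestane 5. Within class A exemestane, and within class B vehicle, held 1 library, so no count is read from those fits. In exemestane against anastrozole the count of partners ran from 0 to 1. The causes of these changes were not tested. The tallies that follow were made over all 10 genes, the 3 described without a test included. Of the counts over these settings, 29 moved and 162 stayed within 1.5 times. Of the values of single genes 119 kept their side of the threshold, 11 passed it and 13 lost it. No fold of a partner called in the fit of groups reversed, whereas the raloxifene and exemestane folds of Rn7sl1 and Rpph1, given without a test, changed sign with class in the fit. Without vehicle 4 the log2 fold of Rpph1 in raloxifene was -0.63. No paired analysis was possible because the titles carry no replicate number that groups share. DESeq2 gave Mepce no adjusted p.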

Other observations

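Genes whose level followed those of the 2 RNAs and of Mepce from library to library were ranked by Pearson's r of log2 CPM over 35 libraries, after the class means were subtracted. These values describe libraries that share totals and scaling, and they carry no test. For Rn7sl1 the closest of 12602 genes were Fabp5 (r = 0.59), a fatty acid binding protein gene, Ttll12 (0.58), Timm8b (0.58), Lrrfip1 (0.57) and Ccnt1 (0.54), a cyclin of P-TEFb. For Rpph1 they were the ribosomal protein gene Rpl30 (r = 0.79, with 0.70 in class A and 0.87 in class B), Ttyh1 (0.63), Chst2 (0.63), Gpank1 (0.62) and Maz (0.61). For Mepce they were Sec23b (r = 0.61), a coat protein gene of transport vesicles, Gnb4 (0.60), Ntn1 (0.54), Per3 (0.54) and Rp9 (0.54). Most Mepce values are 0, so its correlations follow the presence of counts in 14 libraries.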
